A study of Mus musculus with 35 samples.

Results

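Complement and blood clotting are cascades of plasma proteins that the liver makes and secretes, and 38 mouse genes of these cascades were followed here in livers with and without tumors. The list was drawn up by role and holds 13 clotting genes, 8 genes of inhibitors, anticoagulants and fibrinolysis, and 17 complement genes. Each gene was read from a probe set annotated to it alone, the brightest where it had several, and 35 of the 38 genes had such a probe set among 18820 genes measured. The only probe sets of Klkb1 (plasma prekallikrein) and Masp2 (a lectin pathway protease) are also annotated to another gene, so they have no value, and C3 was not analysed here. The gene listed as Protz is annotated as Proz. C5ar1, the receptor for the complement fragment C5a, is a membrane protein of myeloid cells and not a plasma protein, although it stands in the list.

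In the clotting cascade, serine proteases activate one another until thrombin turns fibrinogen into fibrin, and several of them need vitamin K for a modification of their calcium-binding part. Serpins, protein C and protein S hold the cascade in check, and plasmin dissolves the clot. In complement, the classical, lectin and alternative routes each build an enzyme that splits C3, and the terminal proteins then assemble a pore, the membrane attack complex, in the target membrane. Hepatocytes are the main source of most of these proteins, and several of them rise in the acute phase response to inflammation.

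Liver RNA was measured on 35 arrays in 8 groups. DEN tumors (5 arrays) and non-tumorous liver, DEN NTL (5 arrays), came from mice injected with 10 mg per kg diethylnitrosamine, a carcinogen, at 15 days of age and examined at 9 months, and DEN controls (5 arrays) were untreated mice. LT tumors (3 arrays) and LT NTL (5 arrays) came from tg1223 mice, which express lymphotoxin α and β from a liver-specific transgene and were followed for 12 months. MYC tumors (5 arrays) and MYC NTL (3 arrays) came from TRE-MYC mice crossed to LAP-tTA mice, in which a liver-specific promoter drives MYC once doxycycline chow (200 mg per kg) is withdrawn at 8 weeks. Transgene-negative mice (4 arrays) are the shared control of the LT and MYC groups, so comparisons of both models with it share arrays. The sources used here name no strain and no age for the MYC and control groups. All 3 MYC NTL arrays are labelled as MYC mice but carry identifiers that start with the letters WT, so whether those livers bore the MYC transgene is unsettled. No identifier stem is shared between tumor and NTL arrays, while 2 pairs of DEN tumors and 1 pair of LT tumors share a stem and may come from the same animal. Nothing else says that the replicates are separate animals, so p-values measure the spread between these samples.

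Libraries stood apart in 2 ways that touch the results. Xist, an RNA that coats the inactive X chromosome of females, had log2 levels of 11.74 to 12.23 on 9 arrays and of 3.54 to 6.24 on 26. Those 9 comprised every LT tumor, each LT NTL array except replicate 2, and the third replicate in both control groups, although the labels call the controls matched by sex. The third LT tumor was above all LT NTL arrays for F7, F10, Proz, Plg and Masp1, for which the other LT tumors were below them all. Mean log2 levels of 13 other secreted liver proteins, such as albumin, ran from 13.21 to 13.31 in DEN tumors, 13.13 to 13.23 in DEN NTL and 13.17 to 13.27 in DEN controls. They ran from 12.96 to 13.26 in LT tumors and 13.12 to 13.24 in LT NTL, and from 12.99 to 13.08 in MYC tumors, 13.22 to 13.23 in MYC NTL and 13.10 to 13.18 in the shared controls. These genes were thus high on every array, with MYC tumors below MYC NTL and the shared controls. In bulk tissue, fewer hepatocytes and less RNA per hepatocyte cannot be told apart.

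Against the non-tumorous liver of the same model, each of the 3 tumor types had members that changed. A gene was called when its adjusted p in limma's test was below 0.05. DEN tumors had 10 of 35 members higher and 7 lower, against 15.6% of all genes higher and 16.7% lower. LT tumors had 2 members higher and 4 lower, against 10.7% and 9.73% of all genes. MYC tumors had 1 member higher and 15 lower, against 11.5% and 10.3% of all genes. In DEN tumors 5 of 12 clotting genes, 2 of 8 inhibitor genes and 3 of 15 complement genes were higher, and all 7 members that fell were complement genes. In MYC tumors the falls lay in all 3 roles, with 4 of 12 clotting genes, 4 of 8 inhibitor genes and 7 of 15 complement genes lower, and 1 inhibitor gene, Pros1, higher. The median log2 change in DEN tumors was 0.19 for clotting genes, 0.05 for inhibitors and -0.33 for complement, against -0.04 for all genes. The corresponding medians in MYC tumors were -0.30, -0.27 and -0.33, against -0.03 for all genes, and in LT tumors -0.05, -0.21 and -0.16, again against -0.03.

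**Figure D1:**
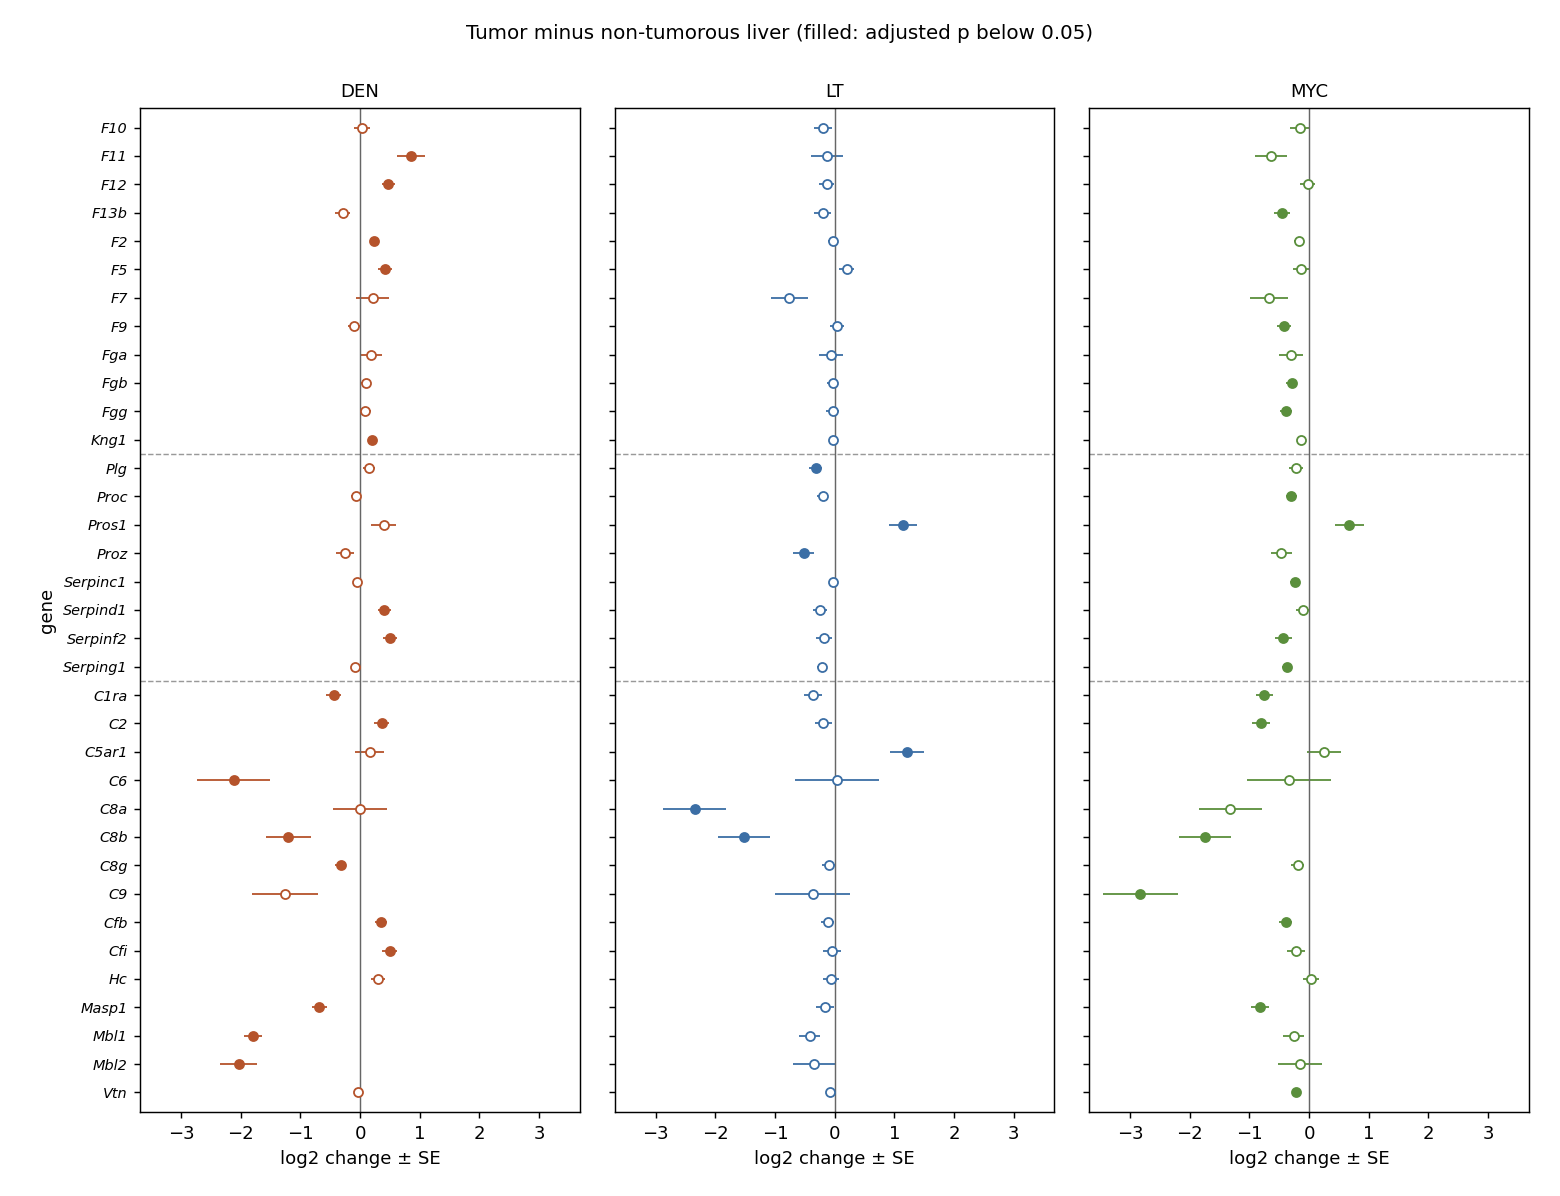
Log2 change ± SE of each measured member in tumor against NTL of its model (x axis), with genes down the page in 3 blocks, clotting, inhibitors and fibrinolysis, and complement. Filled points passed the test, and C8b is the member that was called lower in all 3 models.

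The counts depend on scaling and on single arrays. With each array centred on its own median, DEN tumors had 7 members higher and 8 lower, and LT tumors 2 higher and 11 lower. The LT count was 15 without LT tumor replicate 3 and 2 without LT tumor replicate 1, and it was 0 when the fit held the LT groups alone. The MYC count was 10 without any single MYC NTL array.

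C8b, a chain of the C8 protein of the membrane attack complex, was lower in all 3 tumor types than in their NTL, and it was the only one of 35 members called in each of these comparisons. Against controls, C8b changed by -0.99 ± 0.38 in DEN tumors (limma adjusted p = 0.0448), a call lost on leaving out any 1 of 7 arrays (adjusted p up to 0.099) and with stems averaged. In MYC tumors it changed by -0.57 ± 0.40 against the shared controls and was not called (adjusted p = 0.348). Against NTL, a total of 6 members were called in 2 models, 24 in 1 and 4 in none. These counts stand without the share of all genes called in as many models. Whether 1 of 35 members called in all 3 models exceeds the rate among all genes was not tested. C1ra (a protease of the C1 complex) and Masp1 (a lectin pathway protease) were lower in DEN and in MYC tumors. Serpinf2, C2 and Cfb went opposite ways, higher in DEN tumors and lower in MYC tumors.

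In the lectin pathway, all 3 measured genes were called lower in DEN tumors, where 16.7% of all genes were called lower. Mbl1 and Mbl2 encode the mannose-binding lectins, which bind sugars on microbial surfaces and activate the MASP proteases. Mbl1 had log2 levels of 9.44, 8.44, 8.54, 8.38 and 8.78 in DEN tumors, against 10.63, 10.40, 10.27, 10.56 and 10.70 in DEN NTL. Mbl2 had 8.55, 8.77, 7.64, 8.20 and 6.36 in DEN tumors, against 9.96, 9.97, 9.90, 10.05 and 9.82 in DEN NTL. Every DEN tumor lay below every DEN NTL and every DEN control array for both genes. The log2 change was -1.80 ± 0.15 for Mbl1 (3.48-fold lower, limma adjusted p = 2.60e-10) and -2.04 ± 0.31 for Mbl2 (4.10-fold lower, adjusted p = 8.18e-06). Masp1, the protease they carry, had 10.46, 10.90, 10.98, 10.69 and 11.03 in DEN tumors, against 11.52, 11.60, 11.43, 11.46 and 11.48 in DEN NTL. Its groups did not overlap either, and it fell by 0.69 ± 0.13 (adjusted p = 8.91e-05).

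Neither mannose-binding lectin gene passed the test in LT or MYC tumors. Mbl1 had 10.13, 9.96 and 10.08 in LT tumors, against 10.36 to 10.72 in LT NTL with a median of 10.43 (log2 change -0.42 ± 0.17, limma adjusted p = 0.0923). In MYC tumors it had 10.13, 10.30, 9.71, 10.13 and 10.06, against 10.41, 10.27 and 10.30 in MYC NTL (-0.26 ± 0.17, adjusted p = 0.314). Those groups lay apart in the LT model and overlapped in the MYC model. Mbl2 changed by -0.34 ± 0.36 in LT tumors and by -0.15 ± 0.36 in MYC tumors (adjusted p = 0.565 and 0.817). The differences between models passed the test for both genes. The Mbl1 change in DEN minus that in LT was -1.38 ± 0.23, and minus that in MYC -1.54 ± 0.23 (adjusted p = 0.000207 and 2.92e-05). For Mbl2 the same differences were -1.70 ± 0.48 and -1.89 ± 0.48 (adjusted p = 0.0165 and 0.00678), and the first of these was -1.23 and no longer called without LT tumor replicate 3 (adjusted p = 0.0732). That first call was also lost when the fit held those groups alone (adjusted p = 0.089). Masp1 did fall in MYC tumors, where it had 10.97, 10.83, 10.98, 11.22 and 11.01, against 11.83, 11.83 and 11.81 in MYC NTL (-0.82 ± 0.15, adjusted p = 0.000131), with no overlap. In LT tumors Masp1 had 10.91, 10.78 and 11.87, against 11.45, 11.51, 11.23, 11.21 and 11.33 in LT NTL. The third LT tumor was the highest of these 8 arrays and the other two LT tumors were the lowest, and the mean change of -0.16 ± 0.15 did not pass the test (adjusted p = 0.492). Its change in LT differed from that in MYC by 0.67 ± 0.21 (adjusted p = 0.0318), a call lost without any single MYC NTL array, LT NTL replicate 3, MYC tumor replicate 2 or LT tumor replicate 3 (0.32 and adjusted p = 0.133 without the last).

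**Figure D2:**
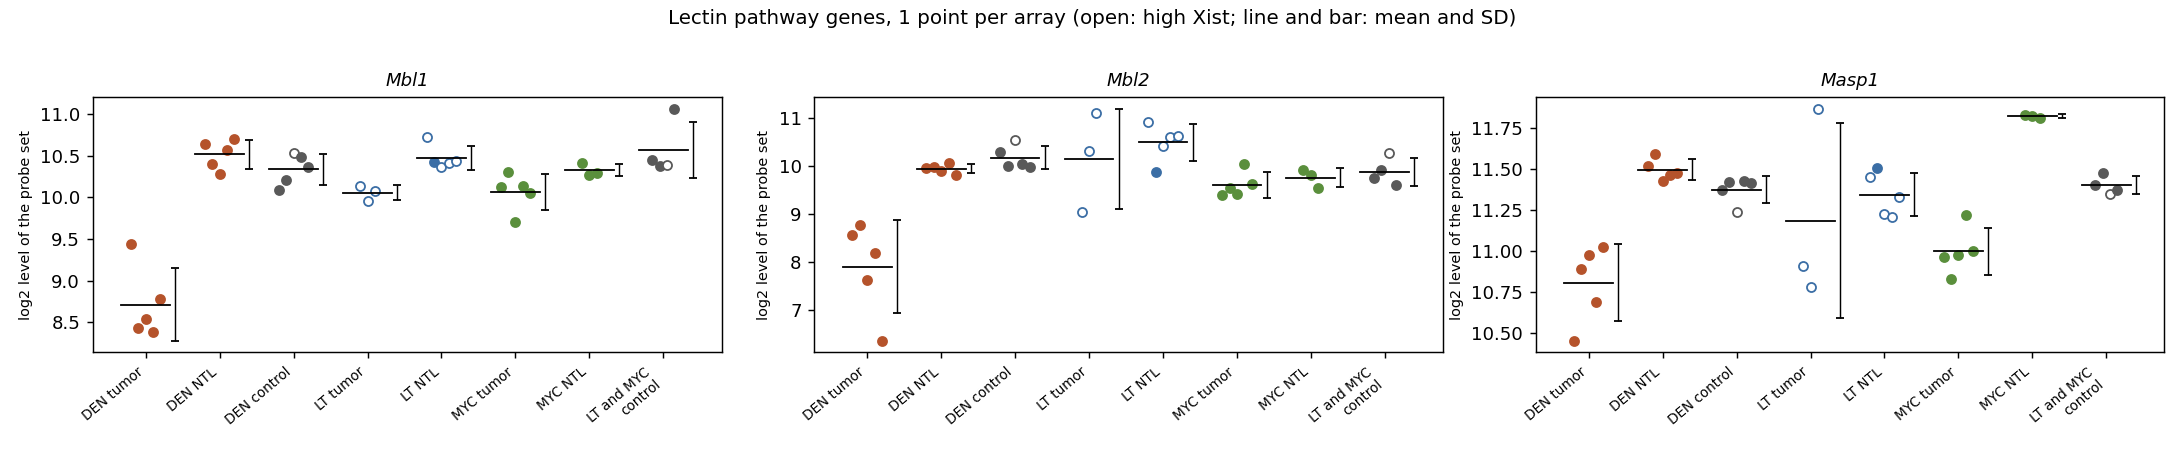
Log2 levels of Mbl1, Mbl2 and Masp1 on each array (y axis) by group (x axis), with the mean and SD beside the points and open symbols for the 9 arrays with high Xist. DEN tumors lie below all other groups for Mbl1 and Mbl2, while Masp1 is low in DEN and MYC tumors and split among LT tumors.

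Because Mbl1 and Mbl2 lie on different chromosomes and fell together, the 150 bases before their annotated starts are shown, 5′ to 3′ on the gene's strand, from RefSeq tables of the mouse assembly GRCm38.p6. The Mbl1 stretch lies at chr14:41151306-41151455 on the plus strand and the Mbl2 stretch at chr19:30232756-30232905 on the plus strand. Capitals mark a block of 39 bases that the pair shares with 34 identical bases and no gap.
Mbl1: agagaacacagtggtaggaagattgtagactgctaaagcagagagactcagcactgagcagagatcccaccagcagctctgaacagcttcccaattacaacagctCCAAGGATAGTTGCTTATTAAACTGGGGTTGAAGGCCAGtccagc
Mbl2: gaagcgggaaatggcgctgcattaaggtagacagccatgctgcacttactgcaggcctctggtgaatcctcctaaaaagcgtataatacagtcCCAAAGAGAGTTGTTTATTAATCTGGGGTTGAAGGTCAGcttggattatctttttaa
The block ends 6 bases before the Mbl1 start and 18 bases before the Mbl2 start. Counted from the 5′ end of the block, with the Mbl1 base first and the Mbl2 base last, the differences are G5A, T8G, C14T, A22T and C36T. The longest exact run, ctggggttgaagg, was found in 3 of 32851 promoter windows on either strand, those of Mbl1, Mbl2 and Slc25a53. This similarity is a description of related genes and was not tested as a regulatory site.

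Among the other early complement genes, DEN and MYC tumors differed from their NTL in opposite directions at the C3-splitting enzymes. C2 and Cfb encode the catalytic parts of the classical and the alternative C3 convertase and are neighbours on chromosome 17, 0.1 kb apart. C2 had log2 levels of 9.40, 8.94, 9.82, 9.35 and 9.37 in MYC tumors, against 10.25, 10.18 and 10.12 in MYC NTL. The groups did not overlap, and the change was -0.81 ± 0.15 (limma adjusted p = 0.000209). The mean C2 level was 9.38 in MYC tumors and 9.37 in the shared controls, and MYC NTL stood above both at 10.18. In DEN tumors C2 was higher by 0.36 ± 0.13 than in DEN NTL (adjusted p = 0.0312), a call lost with centred arrays and without any 1 of 5 arrays, the highest adjusted p being 0.111 without the second DEN tumor. Cfb was higher by 0.36 ± 0.10 in DEN tumors (adjusted p = 0.00534) and changed by -0.39 ± 0.11 in MYC tumors (adjusted p = 0.0119), a call lost without MYC NTL replicate 1 (adjusted p = 0.0509). The change in DEN exceeded that in MYC by 1.16 ± 0.20 for C2 and by 0.75 ± 0.15 for Cfb (adjusted p = 0.000124 and 0.00077). Neither gene passed the test in LT tumors.

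Cfi, the protease that inactivates C3b and C4b, had 12.32, 12.73, 12.48, 12.68 and 12.51 in DEN tumors, against 11.97, 12.03, 11.95, 12.12 and 12.18 in DEN NTL. Every DEN tumor was above every DEN NTL array, and the change was 0.50 ± 0.13 (limma adjusted p = 0.00369). In MYC tumors it changed by -0.23 ± 0.15 (adjusted p = 0.311), and the difference between these models was 0.72 ± 0.20 (adjusted p = 0.0121). C1ra had 8.99, 8.61, 8.72, 8.75 and 8.91 in MYC tumors, against 9.75, 9.56 and 9.34 in MYC NTL, and fell by 0.75 ± 0.14 with no overlap (adjusted p = 0.000317). It also fell by 0.45 ± 0.13 in DEN tumors (adjusted p = 0.00651), while the LT change of -0.36 ± 0.14 did not pass (adjusted p = 0.0757). Vtn, vitronectin, which blocks insertion of the terminal complex, changed by -0.22 ± 0.06 in MYC tumors (adjusted p = 0.0128), a call lost when the fit held the MYC groups alone (adjusted p = 0.0676), and did not pass the test in DEN or LT tumors.

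C5ar1 was called in LT tumors alone. Its log2 levels were 7.92, 6.88 and 5.84 in LT tumors, against 5.66, 5.25, 6.13, 5.74 and 5.56 in LT NTL, a change of 1.21 ± 0.29 (limma adjusted p = 0.00283). The first LT tumor was the highest and the third lay within the LT NTL range, and without the first the call was lost (adjusted p = 0.11). Markers of some myeloid cells were also higher in LT tumors. The mean log2 level of 6 monocyte-derived macrophage markers ran from 6.69 to 8.45 in LT tumors and from 5.47 to 6.19 in LT NTL, with 6 of 6 called higher. For 6 neutrophil markers it ran from 4.89 to 5.55 in LT tumors and from 4.32 to 4.73 in LT NTL, also with 6 of 6 called higher. For 7 markers of Kupffer cells, the resident liver macrophages, it ran from 6.37 to 8.90 in LT tumors, on both sides of the LT NTL range of 7.85 to 8.54. The part of these marker lists in the C5ar1 result was not tested.

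A terminal complement gene had the largest fall of all members in each tumor type, C6 in DEN, C8a in LT and C9 in MYC tumors. The C5 protein (gene Hc) starts the membrane attack complex, C6 and the C8 chains α, β and γ (C8a, C8b, C8g) join it, and C9 forms the pore. Of these 6 genes, 3 were lower in DEN tumors (C6, C8b and C8g) and 2 in LT tumors (C8a and C8b). MYC tumors had 2 of them lower (C8b and C9), and none was higher in any model. The share of all genes called lower was 16.7% for DEN tumors, 9.73% for LT tumors and 10.3% for MYC tumors. The share called higher was 15.6%, 10.7% and 11.5% in that order. Hc did not pass the test in any model, with log2 changes of 0.30 ± 0.12 for DEN, -0.06 ± 0.14 for LT and 0.03 ± 0.14 for MYC tumors.

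C8b had log2 levels of 10.82, 10.61, 10.35, 10.55 and 10.23 in DEN tumors, against 11.78, 11.67, 11.62, 11.75 and 11.77 in DEN NTL. In LT tumors it had 8.05, 9.89 and 9.13, against 10.57, 12.29, 10.42, 9.39 and 10.07 in LT NTL. MYC tumors had 10.20, 10.35, 11.59, 10.94 and 10.47, against 12.52, 12.37 and 12.46 in MYC NTL. Tumors and NTL lay apart in DEN and MYC and overlapped in LT. The changes were -1.20 ± 0.38 in DEN (limma adjusted p = 0.0143), -1.52 ± 0.44 in LT (adjusted p = 0.0124) and -1.74 ± 0.44 in MYC tumors (adjusted p = 0.00437). Without the first LT tumor the LT call was lost (adjusted p = 0.189), as it was with array weights and when the fit held the LT groups alone. C8a, which lies 11.1 kb from C8b on chromosome 4, had 8.80, 5.91 and 7.90 in LT tumors, against 10.08, 11.69, 9.46, 9.03 and 9.14 in LT NTL. All LT tumors lay below all LT NTL arrays, and the change was -2.35 ± 0.52 (5.08-fold lower, adjusted p = 0.00177). In DEN tumors C8a did not move with C8b: it had 11.14, 10.56, 10.58, 10.93 and 10.65, against 10.77, 10.80, 10.45, 10.93 and 10.90 in DEN NTL, a change of 0.00 ± 0.45 (adjusted p = 0.997). The C8a change in DEN exceeded that in LT by 2.35 ± 0.69 (adjusted p = 0.0214), a call lost without the second LT tumor (1.54, adjusted p = 0.132). That call was also lost with array weights and when the fit held those groups alone. In MYC tumors C8a changed by -1.32 and was not called (adjusted p = 0.0702). All MYC tumors (up to 11.38) lay below all MYC NTL arrays (from 11.68) for C8a. It was called when the fit held the MYC groups alone (adjusted p = 0.0155) and with a term for high Xist (adjusted p = 0.0153).

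The bases before the starts of these neighbouring genes are shown because both were called lower in LT tumors and only C8b in DEN and MYC tumors. The C8a stretch is 150 bases long at chr4:104876488-104876637 on the minus strand, and the C8b stretch is 250 bases long at chr4:104766067-104766316 on the plus strand, both from RefSeq tables of GRCm38.p6 and read 5′ to 3′ on the gene's strand. Capitals mark the letters GTTAAT, a half-site for the hepatocyte factor HNF1, or their reverse complement ATTAAC.
C8a: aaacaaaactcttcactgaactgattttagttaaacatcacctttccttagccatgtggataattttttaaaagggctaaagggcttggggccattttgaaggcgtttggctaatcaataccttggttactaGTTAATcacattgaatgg
C8b: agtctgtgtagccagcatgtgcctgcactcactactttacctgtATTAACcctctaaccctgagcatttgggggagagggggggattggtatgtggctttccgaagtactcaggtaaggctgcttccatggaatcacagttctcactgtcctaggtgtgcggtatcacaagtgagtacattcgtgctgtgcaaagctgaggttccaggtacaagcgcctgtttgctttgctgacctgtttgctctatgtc
The match ends 12 bases before the C8a start and 200 bases before the C8b start. On either strand, GTTAAT was found in the 250 bases before the start of 9 of the 30 members with a window, among them F13b, Fga, Fgb and Vtn, and in 6.43% of 32851 windows. A match is a description of the letters and not a binding site.

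C6 was called in DEN tumors and not in LT or MYC tumors. Its log2 levels were 10.41, 7.80, 10.15, 9.34 and 8.68 in DEN tumors, against 11.30, 11.44, 11.40, 11.42 and 11.41 in DEN NTL. All DEN tumors lay below all DEN NTL arrays, with a wide spread among the tumors, and the change was -2.12 ± 0.61 (4.34-fold lower, limma adjusted p = 0.00773). In LT and MYC tumors the change was 0.04 ± 0.70 and -0.33 ± 0.70 (adjusted p = 0.98 and 0.791). The C6 change in DEN did not differ from that in LT or MYC past the threshold (-2.16 ± 0.93 and -1.79 ± 0.93, adjusted p = 0.123 and 0.218). Those differences came from the fit without a term for high Xist. With that term the C6 change in LT tumors was 0.58 (adjusted p = 0.398). C9 had 9.78, 6.85, 11.94, 10.54 and 9.40 in MYC tumors, against 12.60, 12.36 and 12.62 in MYC NTL. Every MYC tumor was below every MYC NTL array, the second by far the most, and the change was -2.83 ± 0.63 (7.10-fold lower, adjusted p = 0.00162). When the fit held the MYC groups alone, the C9 call was lost (adjusted p = 0.0593). In DEN tumors C9 had 11.38, 11.19, 9.30, 11.18 and 9.62, against 11.63, 11.84, 11.70, 11.96 and 11.82 in DEN NTL, and did not pass the test (-1.26 ± 0.55, adjusted p = 0.0802). C8g, the γ chain of C8, fell by 0.33 ± 0.09 in DEN tumors (adjusted p = 0.00704), a call lost when the fit held the DEN groups alone (adjusted p = 0.0546).

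**Figure D3:**
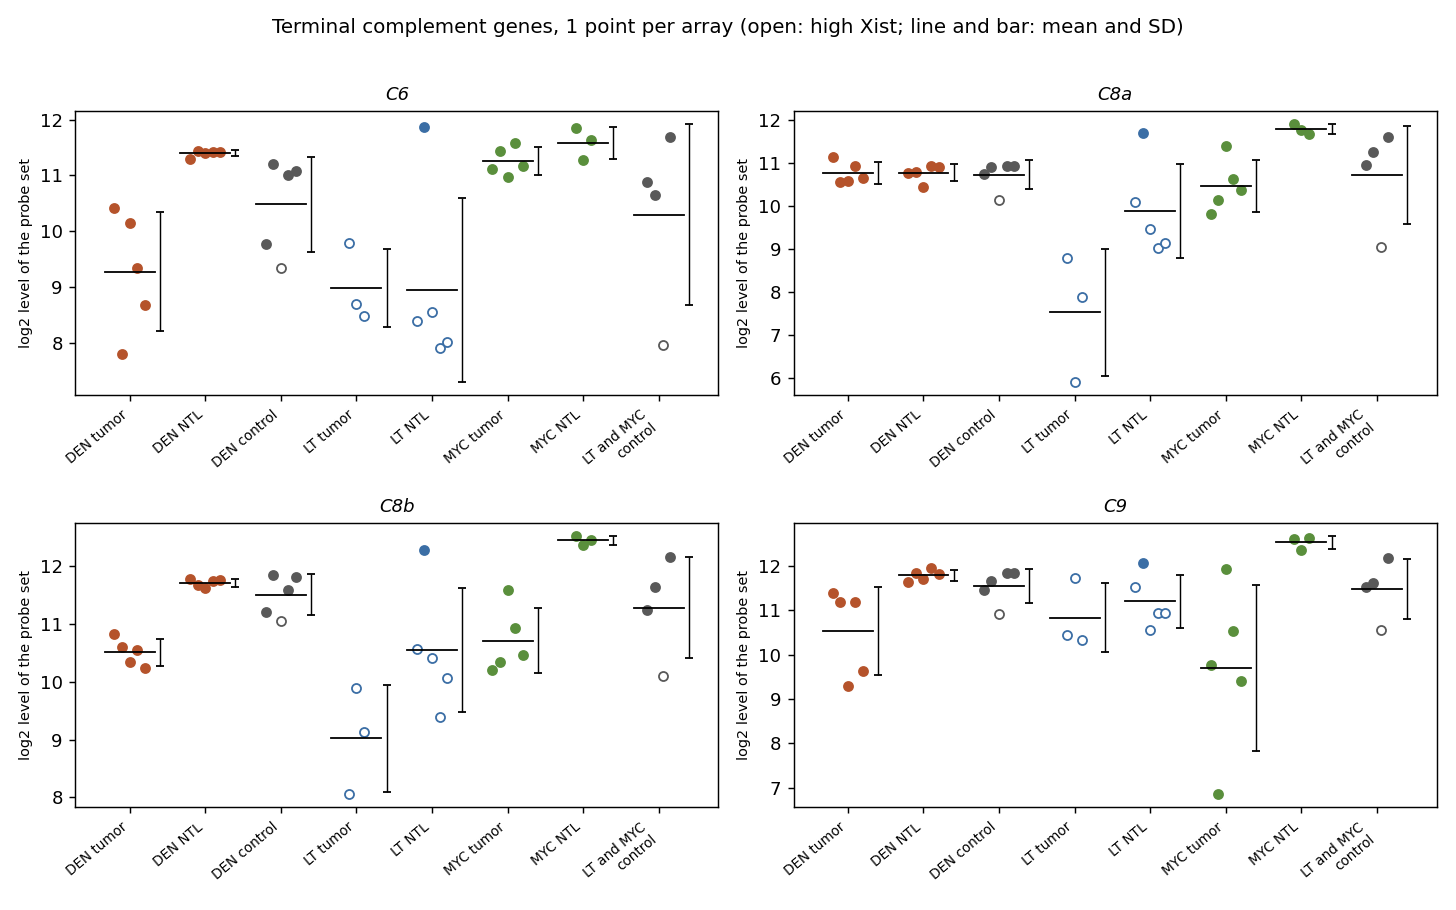
Log2 levels of C6, C8a, C8b and C9 on each array (y axis) by group (x axis), with the mean and SD beside the points and open symbols for the 9 arrays with high Xist. In LT NTL and in both control groups the arrays with high Xist lie below those with low Xist for all 4 genes.

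Of the terminal genes, C6, C8a, C8b and C9 also followed Xist. In LT NTL, the lone array with low Xist, replicate 2, had a C6 level of 11.86, while the 4 arrays with high Xist had 7.91 to 8.55. In the shared controls, replicate 3 with high Xist had 7.96, while the 3 with low Xist had 10.66 to 11.70. In DEN controls, replicate 3 with high Xist had 9.35, while the 4 with low Xist had 9.77 to 11.20. C8a, C8b and C9 were likewise lower in the arrays with high Xist in each of these groups. When a term for high Xist was added to the fit, 0.85% of all genes and 3 of 35 members were called by it, and all 3 were terminal complement genes. The term was -2.72 ± 0.39 for C6 (limma adjusted p = 0.00012), -1.73 ± 0.35 for C8a (adjusted p = 0.00794) and -1.43 ± 0.29 for C8b (adjusted p = 0.00874). It was -1.03 ± 0.54 for C9, which did not pass the test (adjusted p = 0.598). For C8g and Hc it was 0.05 ± 0.10 and -0.08 ± 0.13, and neither passed the test (adjusted p = 0.946 and 0.924). These 9 arrays were picked by their own Xist level, not by a label.

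With the term in the fit, the terminal genes called lower in tumor against NTL were still called. All DEN and MYC tumor and NTL arrays had low Xist, so those changes are the same in both fits, and the adjusted p with the term was 6.74e-05 for C6 and 0.00147 for C8b in DEN tumors, and 0.000286 for C8b and 0.0011 for C9 in MYC tumors. In LT tumors the change was -1.999 for C8a (adjusted p = 0.000739) and -1.24 for C8b (adjusted p = 0.00876), and without LT NTL replicate 2, which leaves arrays with high Xist on both sides, it was -1.89 and -1.09 (adjusted p = 0.0059 and 0.0399). Against the shared controls, where 3 of 4 arrays have low Xist, the LT tumor values moved more. The C8a change was -3.18 ± 0.55 without the term (limma adjusted p = 0.000385) and -1.88 with it (adjusted p = 0.0205). The C8b change was -2.26 ± 0.46 without it (adjusted p = 0.00134), and with it -1.18 and no longer called (adjusted p = 0.0738).

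Among clotting genes, DEN tumors had higher levels of the contact factors, which start the intrinsic route. F11, factor XI, had log2 levels of 8.65, 9.79, 10.13, 10.01 and 10.26 in DEN tumors, against 9.03, 8.95, 8.53, 8.99 and 9.05 in DEN NTL. DEN tumors 2 to 5 lay above all DEN NTL arrays and the first lay within their range, and the change was 0.86 ± 0.23 (1.81-fold higher, limma adjusted p = 0.00511). F12, factor XII, had 11.76, 12.04, 11.68, 11.71 and 11.62 in DEN tumors, against 11.27, 11.21, 11.18, 11.20 and 11.58 in DEN NTL. These groups did not overlap, and the change was 0.48 ± 0.11 (adjusted p = 0.00105). Kng1, which encodes high molecular weight kininogen, their cofactor, was higher by 0.20 ± 0.06 (adjusted p = 0.00812), a call that was lost with centred arrays. All 3 measured contact genes were thus called higher in DEN tumors, where 15.6% of all genes were called higher. None of the 3 passed the test in LT or MYC tumors.

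F5, factor V, the cofactor that speeds thrombin formation, had 11.92, 12.32, 12.33, 12.22 and 12.28 in DEN tumors, against 11.73, 11.81, 11.71, 11.82 and 11.91 in DEN NTL. Each DEN tumor exceeded each DEN NTL array, the first by little, and the change was 0.42 ± 0.11 (limma adjusted p = 0.00376). F2, prothrombin, was higher by 0.24 ± 0.07 in DEN tumors (adjusted p = 0.0117), a call lost with centred arrays and without the second DEN tumor. F13b, a carrier subunit of the fibrin-stabilising factor XIII, changed by -0.46 ± 0.14 in MYC tumors (adjusted p = 0.0157), a call lost on leaving out any 1 of 2 arrays (adjusted p up to 0.0512), with a change of -0.29 ± 0.12 in DEN tumors (adjusted p = 0.0581).

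The vitamin K-dependent genes F2, F7, F9, F10, Proc, Pros1 and Proz were also counted as a subgroup. In DEN tumors 1 of 7 was higher and none lower, in LT tumors 1 was higher and 1 lower, and in MYC tumors 1 was higher and 2 were lower. Of all genes, 15.6% were higher and 16.7% lower in DEN tumors, 10.7% and 9.73% in LT tumors, and 11.5% and 10.3% in MYC tumors. F9, factor IX, the protein missing in haemophilia B, had 11.01, 10.92, 11.10, 10.89 and 10.82 in MYC tumors, against 11.35, 11.24 and 11.53 in MYC NTL. The groups lay apart, and F9 fell by 0.43 ± 0.12 (limma adjusted p = 0.00874), a call lost without MYC NTL replicate 3 (adjusted p = 0.0727). F7, factor VII, the partner of tissue factor, had 8.77, 9.26 and 11.52 in LT tumors, against 10.91, 10.22, 10.59, 10.55 and 10.78 in LT NTL. The first and second LT tumors were below all LT NTL arrays and the third above them all, and the change of -0.76 ± 0.31 did not pass the test (adjusted p = 0.0871). At an unadjusted p of 0.0219, F7 was the only one of 12 clotting genes below 0.05 in LT tumors, and none was called. F7, F10 and Proz lie in a row on chromosome 8, with gaps of 1.5 and 3.9 kb. F10, factor X, had 10.54, 10.97 and 11.97 in LT tumors, against 11.46, 11.32, 11.29, 11.30 and 11.41 in LT NTL, the same split of the third LT tumor from the others, with a mean change of -0.20 ± 0.15 (adjusted p = 0.411).

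The 3 fibrinogen chain genes, Fga, Fgb and Fgg, lie side by side on chromosome 3, with gaps of 11.1 kb between Fgg and Fga and 8.6 kb between Fga and Fgb. Fgg had log2 levels of 12.64, 12.78, 13.31, 13.01 and 12.84 in MYC tumors, against 13.33, 13.25 and 13.32 in MYC NTL, and fell by 0.38 ± 0.10 (limma adjusted p = 0.00732). Fgb fell by 0.29 ± 0.09 (adjusted p = 0.0228), and Fga, with -0.30 ± 0.21, did not pass the test (adjusted p = 0.327). The third MYC tumor lay within the MYC NTL range for Fgg while the other 4 were below it. When the fit held the MYC groups alone, neither was called, and Fgb also lost its call on leaving out any 1 of 5 arrays (adjusted p up to 0.0891, without MYC NTL replicate 1). None of the 3 was called in DEN or LT tumors, where their log2 changes lay between -0.06 and 0.19. The change in DEN exceeded that in MYC by 0.47 ± 0.14 for Fgg and by 0.38 ± 0.12 for Fgb (adjusted p = 0.0165 and 0.0301). The Fgb difference lost its call on leaving out any 1 of 6 arrays (adjusted p up to 0.079), with centred arrays and when the fit held those groups alone.

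**Figure D4:**
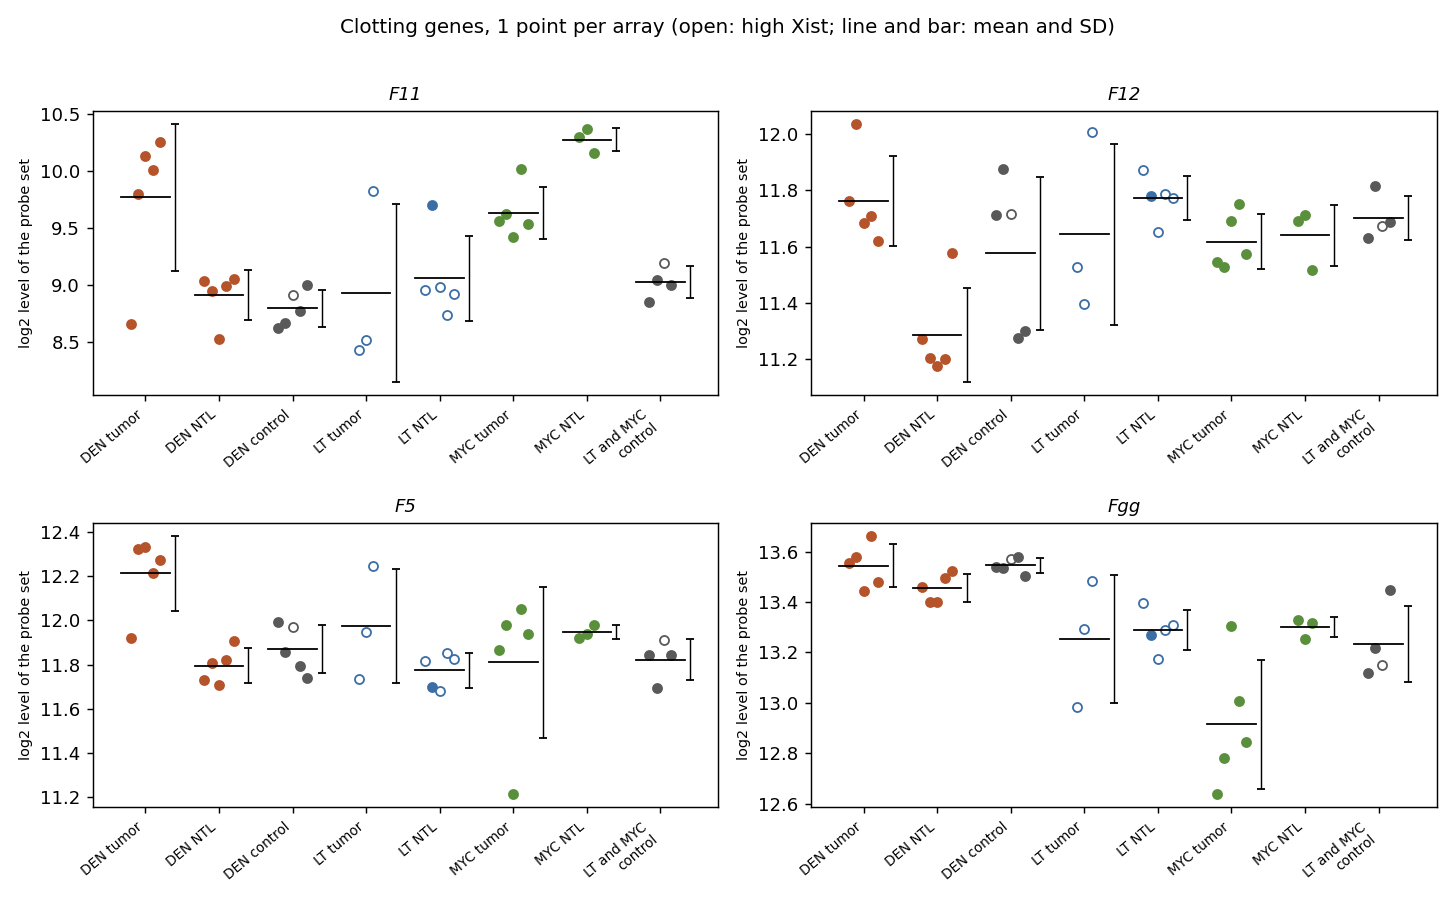
Log2 levels of F11, F12, F5 and Fgg on each array (y axis) by group (x axis), with the mean and SD beside the points and open symbols for the 9 arrays with high Xist. F12 and F5 are higher in DEN tumors than in DEN NTL without overlap, F11 is as high in MYC NTL as in the highest DEN tumors, and Fgg is low in 4 of 5 MYC tumors.

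The promoters of the fibrinogen genes called lower are shown because their response to interleukin-6 in the acute phase is well known. Both stretches hold 150 bases before the annotated start in GRCm38.p6, from RefSeq, 5′ to 3′ on the gene's strand. Fgb lies at chr3:83049864-83050013 on the minus strand and Fgg at chr3:83007574-83007723 on the plus strand. Capitals mark CTGGGAA, the letters of the interleukin-6 response element of type II.
Fgb: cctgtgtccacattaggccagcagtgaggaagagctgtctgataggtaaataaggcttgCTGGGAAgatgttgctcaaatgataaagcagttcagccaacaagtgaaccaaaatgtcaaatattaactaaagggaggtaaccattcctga
Fgg: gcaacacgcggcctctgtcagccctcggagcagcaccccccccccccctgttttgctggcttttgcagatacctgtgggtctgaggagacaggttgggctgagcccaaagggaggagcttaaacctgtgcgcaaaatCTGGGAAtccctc
The match ends 84 bases before the Fgb start and 6 bases before the Fgg start. On either strand it was found in the 250 bases before 5 of 30 members, C1ra, F9, Fgb, Fgg and Masp2, and in 9.1% of all windows. The match describes the letters and was not tested as a response element.

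Among inhibitors, Serpinf2 and Serpind1 were higher in DEN tumors. Serpinf2, α2-antiplasmin, the main inhibitor of plasmin, had log2 levels of 12.93, 13.14, 13.10, 13.14 and 13.06 in DEN tumors, against 12.59, 12.57, 12.48, 12.62 and 12.60 in DEN NTL. No DEN tumor overlapped with DEN NTL, and the change was 0.50 ± 0.12 (limma adjusted p = 0.00164). In MYC tumors Serpinf2 fell by 0.43 ± 0.14 (adjusted p = 0.0238), a call lost on leaving out any 1 of 6 arrays (adjusted p up to 0.089), and the change in DEN exceeded that in MYC by 0.93 ± 0.18 (adjusted p = 0.000658). Serpind1, heparin cofactor II, which inhibits thrombin, was higher by 0.41 ± 0.10 in DEN tumors (adjusted p = 0.00268), and this exceeded the LT change by 0.66 ± 0.16 and the MYC change by 0.51 ± 0.16 (adjusted p = 0.00534 and 0.0251), the second lost on leaving out any 1 of 4 arrays (adjusted p up to 0.0587) and with centred arrays. The changes in LT and MYC tumors were -0.25 ± 0.12 and -0.10 ± 0.12, and neither passed the test.

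MYC tumors had lower levels of inhibitors of other steps. Serping1, the C1 inhibitor, which restrains C1, MASP and contact proteases, fell by 0.37 ± 0.09 (limma adjusted p = 0.00232). Proc, protein C, which inactivates factors V and VIII, fell by 0.30 ± 0.09 (adjusted p = 0.0239). Serpinc1, antithrombin, fell by 0.24 ± 0.08 (adjusted p = 0.0307). MYC tumors did not overlap with MYC NTL for these 3 genes, which describes their arrays without a share of all genes that lay apart. None of the 3 was called in DEN or LT tumors. The Proc call was lost on leaving out any 1 of 3 arrays and the Serpinc1 call any 1 of 4, with adjusted p up to 0.118 and 0.0935, while Serping1 kept its call throughout.

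Pros1, protein S, the cofactor of activated protein C, was higher in LT and MYC tumors. It had 10.22, 10.31 and 8.82 in LT tumors, against 8.92, 8.90, 8.14, 8.68 and 8.54 in LT NTL, and 9.14, 9.18, 8.75, 9.27 and 9.52 in MYC tumors, against 8.43, 8.41 and 8.64 in MYC NTL. MYC tumors lay above all MYC NTL arrays, and the third LT tumor lay within the LT NTL range. The change was 1.15 ± 0.24 in LT tumors (2.21-fold higher, limma adjusted p = 0.00104) and 0.68 ± 0.24 in MYC tumors (adjusted p = 0.0433). In DEN tumors it was 0.39 ± 0.21 (adjusted p = 0.154). The MYC call was lost with centred arrays and on leaving out all but 1 of the 8 arrays in turn. Besides hepatocytes, endothelial cells and other cells make protein S. The mean log2 level of 7 endothelial markers ran from 8.18 to 9.27 in LT tumors, against 8.72 to 8.98 in LT NTL, with 3 of 7 called higher and 2 lower. In MYC tumors it ran from 8.32 to 8.66, against 8.54 to 8.75 in MYC NTL, with none of 7 called. The mean log2 level of 8 stellate and fibroblast markers ran from 8.16 to 10.40 in LT tumors and from 7.54 to 8.04 in LT NTL, with 6 of 8 called higher, and the part of either marker list in the Pros1 result was not tested. In MYC tumors the same mean ran from 6.60 to 7.85, against 7.71 to 7.90 in MYC NTL, with none of 8 called higher and 3 lower (median log2 change -0.39).

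Plg and Proz were called lower in LT tumors, and both calls rest on the first 2 tumors. Plg, plasminogen, the precursor of plasmin, had 12.26, 12.73 and 13.23 in LT tumors, against 13.15, 12.97, 13.001, 13.12 and 13.07 in LT NTL (-0.32 ± 0.11, limma adjusted p = 0.0442). Proz, protein Z, a cofactor in the inhibition of factor X, had 9.80, 10.33 and 11.37 in LT tumors, against 11.11, 11.03, 10.84, 11.02 and 11.10 in LT NTL (-0.52 ± 0.18, adjusted p = 0.0371). The third LT tumor was the highest of all 8 arrays for both. Each call was lost on leaving out any 1 of 6 of the 8 arrays. Without the first LT tumor the changes were -0.08 for Plg and -0.17 for Proz and not called (adjusted p = 0.705 and 0.614). The first and second LT tumors share an identifier stem. Both calls were also lost with stems averaged, with the stem as a random block, when the fit held the LT groups alone and with the replicate number as a block.

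The same tumors were also set against control liver. DEN tumors had 7 members higher and 7 lower than DEN controls, against 15% and 15.6% of all genes. With centred arrays the split was 3 higher and 12 lower. Mbl1 and Mbl2 changed by -1.62 ± 0.15 and -2.26 ± 0.31 (limma adjusted p = 1.07e-09 and 1.30e-06), and F11 was higher by 0.98 ± 0.23 (adjusted p = 0.00155). Of the other contact genes, F12 changed by 0.19 ± 0.11 and was not called (adjusted p = 0.213), and Kng1 was higher by 0.15 ± 0.06 (adjusted p = 0.0394), a call lost on leaving out any 1 of 6 arrays (adjusted p up to 0.118). C6, with -1.20 ± 0.61, was not called against the controls (adjusted p = 0.144), of which replicate 1 and replicate 3 had 9.77 and 9.35 and the others 11.00 to 11.20. With the Xist term the C6 change was -1.75 and called (adjusted p = 0.000737). DEN NTL had no member called against DEN controls, with 0.197% of all genes called, 1 member at an unadjusted p below 0.05, and 1 called when the fit held the DEN groups alone.

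LT tumors had 2 members higher (Pros1 and C5ar1) and 2 lower (C8a and C8b) than the shared controls, against 8.78% and 7.73% of all genes, and with centred arrays 2 were higher and 7 lower. The count was 14 without LT tumor replicate 3 and 2 with the Xist term. C5ar1 was higher by 0.885 (limma adjusted p = 0.0394), a call lost on leaving out any 1 of 5 of the 7 arrays (adjusted p up to 0.483). It was also lost in 5 of 10 other settings. F10 changed by 0.03 ± 0.16 over all 3 LT tumors (limma adjusted p = 0.931) and by -0.38 without the third, when it was called. LT NTL had no member called against the shared controls, with 2.41% of all genes called, 3 members at an unadjusted p below 0.05, 1 called when the fit held those groups alone and 4 with array weights.

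MYC tumors had no member higher and 8 lower than the shared controls, against 10.2% and 10.3% of all genes. They were C9, Mbl1, Masp1, Cfb, F9, Serping1, Fgg and Serpinc1. C9 changed by -1.77 ± 0.58 (limma adjusted p = 0.0288), Mbl1 by -0.50 ± 0.16 (adjusted p = 0.0242) and Serping1 by -0.32 ± 0.08 (adjusted p = 0.0035). The C9 call was lost on leaving out any 1 of 5 arrays, with a change of -1.06 without the second MYC tumor (adjusted p = 0.118), and the Mbl1 change was -0.34 without the fourth shared control (adjusted p = 0.148). Both were also lost when the fit held those groups alone (adjusted p = 0.183 and 0.0612). The count was 3 without the fourth shared control array. MYC NTL had 3 members higher than the shared controls and none lower, with 3.83% of all genes called. They were F11 by 1.25 ± 0.28 (adjusted p = 0.00812), C2 by 0.81 ± 0.16 (adjusted p = 0.00196) and C1ra by 0.76 ± 0.15 (adjusted p = 0.0028). F11 had 10.30, 10.36 and 10.16 in MYC NTL, against 8.85, 9.04, 9.19 and 9.00 in the shared controls. C2 had 10.25, 10.18 and 10.12 in MYC NTL, against 9.24, 9.47, 9.32 and 9.45 in the shared controls, and C1ra had 9.75, 9.56 and 9.34, against 8.64, 8.70, 8.97 and 8.85. No array of MYC NTL overlapped with the controls for these genes, again without a share of all genes that lay apart. MYC tumors differed from the shared controls by 0.01 for both C2 and C1ra (adjusted p = 0.984 and 0.98), while against MYC NTL both were lower.

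**Figure D5:**
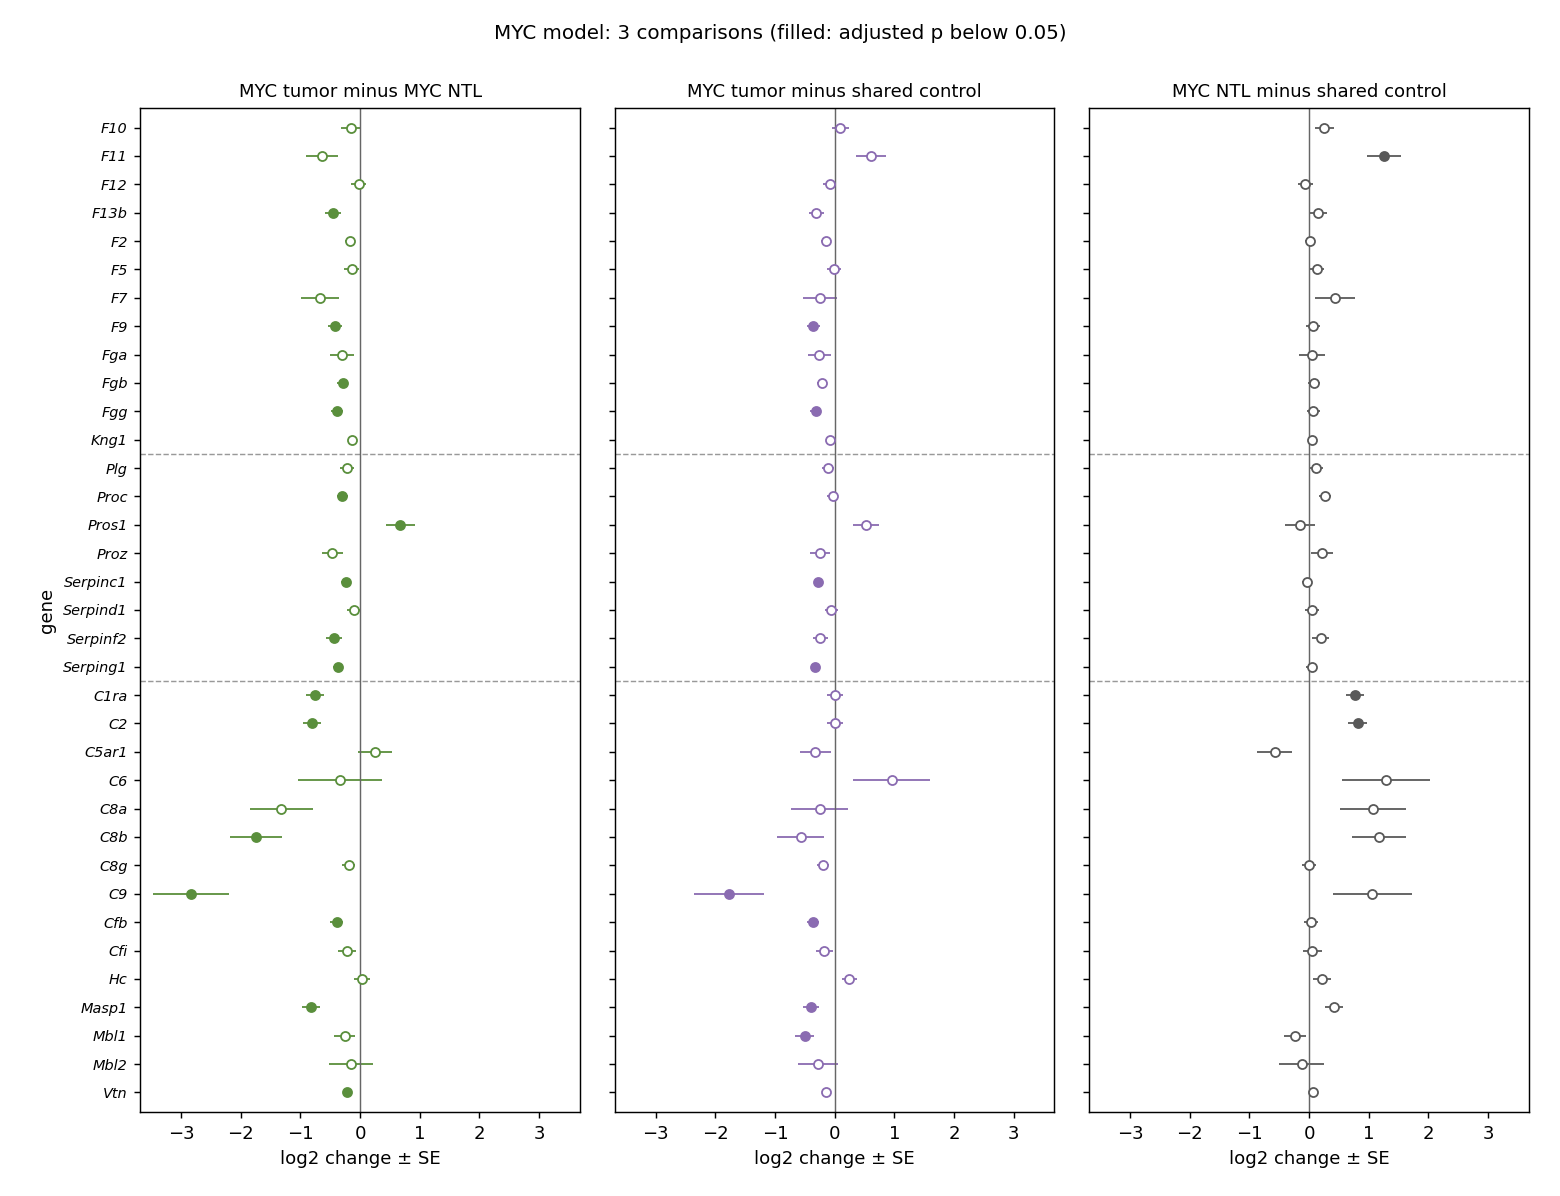
Log2 change ± SE of each measured member (x axis) in MYC tumor against MYC NTL, MYC tumor against shared control and MYC NTL against shared control, with genes down the page in 3 blocks as in the plot of tumor against NTL. C2 and C1ra are filled left of 0 in the first panel, near 0 in the second and filled right of 0 in the third.

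The tumor changes were also set against each other between models, where comparisons that name the same model share its arrays. The change in DEN differed from that in LT for 8 members (6 higher, 2 lower), with 13.9% of all genes called. The count was 18 without LT tumor replicate 3 and 4 when the fit held those groups alone. The change in DEN differed from that in MYC for 14 members (12 higher, 2 lower), with 15.1% of all genes called, and 7 of the 12 were clotting genes. For F11, a clotting protease, it exceeded that in MYC by 1.503 ± 0.36 (limma adjusted p = 0.00389), where MYC NTL itself had high F11. For F12 it exceeded that in LT by 0.60 ± 0.17 and that in MYC by 0.50 ± 0.17 (adjusted p = 0.0138 and 0.0394). The first of these F12 calls was lost without the second LT tumor (adjusted p = 0.0673), with stems averaged and with array weights. The second was lost on leaving out any 1 of 10 of the 18 arrays (adjusted p up to 0.104), with centred arrays and with the replicate block (adjusted p = 0.0754). The changes in LT and MYC differed for 1 member, Masp1, with 12.4% of all genes called. For Plg the change in DEN exceeded that in LT by 0.48 ± 0.15 (adjusted p = 0.0322). That call was lost on leaving out any 1 of 4 arrays, with 0.24 without the first LT tumor (adjusted p = 0.22). It was also lost with stems averaged and when the fit held those groups alone.

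Other genes of the 2 cascades gave a context for these members. Of 28 further complement genes, 23 were measured. In DEN tumors 3 were higher and 10 lower, in LT tumors 3 higher and 4 lower, and in MYC tumors 1 higher and 7 lower. The shares of all genes were 15.6% higher and 16.7% lower in DEN, 10.7% and 9.73% in LT, and 11.5% and 10.3% in MYC tumors. Colec10, a collectin that, like the mannose-binding lectins, works with MASP proteases, was lower in all 3, with log2 changes of -2.52 ± 0.37 for DEN, -1.23 ± 0.42 for LT and -2.30 ± 0.42 for MYC tumors (limma adjusted p = 3.20e-06, 0.0371 and 0.000203). Fcna, a ficolin made mainly by macrophages, fell by 2.05 ± 0.30 in DEN tumors (adjusted p = 3.87e-06), where 7 of 7 Kupffer cell markers were also lower. The mean log2 level of those markers ran from 6.35 to 7.55 in DEN tumors and from 8.28 to 9.25 in DEN NTL, and their part in the Fcna result was not tested. Susd4, a complement regulator, fell by 3.38 ± 0.91 in DEN tumors (adjusted p = 0.0045), and it was also called by the Xist term (-3.93 ± 0.61, adjusted p = 0.000308). C4a, a gene with a near-identical copy, C4b, whose signal its probes may share, fell by 1.63 ± 0.48 in MYC tumors (adjusted p = 0.0153) and was called by the Xist term too (-1.69 ± 0.31, adjusted p = 0.00225).

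Of 31 further clotting and fibrinolysis genes, 27 were measured. In DEN tumors 8 were higher and 3 lower, in LT tumors 12 higher and 4 lower, and in MYC tumors 3 higher and 7 lower. Among all genes 15.6% were higher and 16.7% lower in DEN, 10.7% and 9.73% in LT, and 11.5% and 10.3% in MYC tumors. Anxa2, a cell surface receptor for plasminogen and its activator, was higher by 2.86 ± 0.38 for DEN, 2.45 ± 0.43 for LT and 2.47 ± 0.43 for MYC tumors (limma adjusted p = 6.63e-07, 0.000206 and 0.000115). Plat, tissue plasminogen activator, was higher by 1.97 ± 0.58, 2.32 ± 0.67 and 2.36 ± 0.67 in the same order (adjusted p = 0.00935, 0.0131 and 0.011). F3, tissue factor, fell by 1.18 ± 0.25 in MYC tumors (adjusted p = 0.000874).

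Of 15 hepatocyte regulators, 13 were measured, and 3 were higher in DEN tumors, none of 13 was higher and 5 were lower in LT tumors, and 4 were lower in MYC tumors. Foxa3, a hepatocyte transcription factor, was higher by 1.20 ± 0.23 in DEN tumors (limma adjusted p = 0.000107). Il6ra, the interleukin-6 receptor chain through which acute phase genes are induced, changed by -1.04 ± 0.32 in LT and by -1.26 ± 0.32 in MYC tumors (adjusted p = 0.0181 and 0.00455). Cebpa, a hepatocyte transcription factor, fell by 0.80 ± 0.18 in MYC tumors (adjusted p = 0.00191). Of 13 measured genes of other secreted liver proteins, 3 were higher and 1 lower in DEN tumors, 4 were lower in LT and 5 in MYC tumors, and none was higher in those. Of 14 measured acute phase genes, 4 were higher and 2 lower in DEN tumors, 2 and 2 in LT tumors and 2 and 3 in MYC tumors. Lcn2, which encodes lipocalin 2, was higher in all 3 by 2.08 ± 0.50, 1.64 ± 0.58 and 2.51 ± 0.58 (adjusted p = 0.00171, 0.042 and 0.00202). All these lists stand against 15.6% of all genes higher and 16.7% lower in DEN tumors. The same shares were 10.7% and 9.73% in LT tumors and 11.5% and 10.3% in MYC tumors.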

How the data were processed

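RNA from 35 mouse liver and liver tumor samples was measured on Affymetrix arrays. The deposited values are log2 intensities that the authors made with RMA, per the submitters' processing notes, which subtracts background, normalizes between arrays and summarises probes. The annotation pairs 21218 of 35556 probe sets with a lone gene symbol, 1881 with more than 1 and leaves 12457 unnamed here, and the brightest single-symbol probe set stood for each of 18820 genes. Array medians lay between 5.59 and 5.73, and the number of arrays limits the precision. Group means were fitted over all 35 arrays with limma 3.58.1 in R 4.3.3, with moderated variances and Benjamini-Hochberg adjustment over all 18820 genes, no filter on low values, and a call at an adjusted p below 0.05. Errors of changes are standard errors. Statements that groups overlap or lie apart describe the arrays of the gene named, and no share of all genes is given beside them. The fit was tested on simulated data. Groups came from the sample titles.

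All members are named. Arrays are listed in full for up to 5 called members a direction, ranked by size of change, in each comparison of tumor with NTL, and for F7, F9, F10 and Fgg, chosen after their values were seen. Of other lists, at most the 3 called genes with the largest change are named. The members and lists were chosen with earlier results of these data known. Replicate numbers are shared between groups without saying that animals are. Deviations of same-numbered arrays correlated positively in each pair for LT tumors and shared controls (0.233, 0.137 and 0.166), where a block left the count of called members at 4. They were also positive, but smaller, for MYC tumors and shared controls (0.065, 0.007, 0.013 and 0.038), where a block left the count at 8. Alternatives covered the arrays fitted, centring on array medians, variance models, a filter on dim genes, the mean of probe sets, shared identifier stems, a replicate block, a term for high Xist, array weights and leaving out each array. Promoters came from RefSeq tables of GRCm38.p6.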

Additional observations from a re-analysis of the deposited data

Results flagged for a closer look

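A single array lay far from the rest of its group by Dixon's test in 12 of 210 groups of 4 or 5 arrays, where chance gives about 1 in 20. Among tumors, the first DEN tumor had the lowest F5 (11.92, the others 12.22 to 12.33) and the lowest F11 (8.65, the others 9.79 to 10.26). The third MYC tumor had the highest F2 (12.73, the others 12.55 to 12.58) and the lowest F5 (11.21, the others 11.87 to 12.05). In DEN NTL, replicate 3 had the lowest F11 (8.53), and replicate 5 the highest F12 (11.58, the others 11.18 to 11.27) and the highest Fgb (13.34, the others 13.19 to 13.21). In LT NTL, replicate 2 had the highest F11 (9.70) and C6 (11.86), and replicate 1 the highest Mbl1 (10.72). Among controls, DEN control replicate 3 had the lowest C8a (10.135), and the fourth shared control the highest Mbl1 (11.06).

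The change in tumor against NTL differed between models for 23 pairs of member and comparison by limma's test of the difference. The change in DEN minus that in LT was 0.60 for F12, 0.66 for Serpind1, 0.68 for Serpinf2, 0.475 for Plg, 2.35 for C8a, 0.47 for Cfb, -1.38 for Mbl1 and -1.70 for Mbl2. The change in DEN minus that in MYC was 0.405 for F2, 0.555 for F5, 1.503 for F11, 0.498 for F12, 0.38 for Fgb, 0.47 for Fgg, 0.33 for Kng1, 0.51 for Serpind1 and 0.93 for Serpinf2. Among complement genes it was 1.16 for C2, 0.750 for Cfb, 0.72 for Cfi, -1.54 for Mbl1 and -1.885 for Mbl2. The change in LT minus that in MYC was 0.665 for Masp1.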

How the results depend on the processing

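Over all members, comparisons and alternatives, 8371 values stayed on their side of the threshold, 177 gained a call, 201 lost one and 1 called value changed sign. Of the 8371, 289 changed sign and were called in neither setting. Fitting only the groups compared gave 0 called members for LT tumors against LT NTL and 0 against shared controls, 5 for MYC tumors against shared controls, 1 for DEN NTL and 1 for LT NTL against controls, 4 for DEN minus LT and 0 for LT minus MYC. Centring arrays gave 13 for LT tumors against LT NTL, 9 against shared controls and 0 for LT minus MYC. The high-Xist term gave 2 for LT tumors against shared controls and 3 for LT minus MYC. Array weights gave 14 for MYC tumors, 4 for LT NTL and 8 for MYC NTL against shared controls, and 2 for LT minus MYC. Averaging stems gave 5 for DEN minus LT and 3 for LT minus MYC, a random stem block 2 and leaving out dim genes 2 for LT minus MYC. The causes were not tested.

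Leaving out 1 array gave 15 to 18 called members for DEN, 2 to 15 for LT and 10 to 16 for MYC tumors against NTL. Against controls it gave 10 to 14 for DEN, 3 to 14 for LT and 3 to 9 for MYC tumors, 0 for DEN NTL, 0 to 1 for LT NTL and 3 for MYC NTL. Between models it gave 6 to 18 for DEN minus LT, 11 to 15 for DEN minus MYC and 0 to 6 for LT minus MYC. F10 in LT tumors against shared controls lay between -0.38 without the third LT tumor and 0.338 without the first. With the replicate number as a block, the counts were 17, 4 and 17 for DEN, LT and MYC tumors against NTL and 15, 4 and 8 against controls. That block ended the calls of Proz and Plg in LT tumors.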
